A study of Mus musculus with 21 samples.

Results

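The 38 Hox genes described here are the listed members of the Hoxa, Hoxb, Hoxc and Hoxd clusters, and the values are the peaks of estrogen receptor alpha (ERα) at them. A peak was counted when its summit, the position of its highest signal, lay inside the span of a member or within 25 kb of it, and each peak was counted once in its cluster. The 5 peak lists held 24 such peaks among 72690 on chromosomes 1 to 19 and X. All tissues came from CD-1 mice aged 10 weeks that received estradiol or vehicle before they were killed, and ERα was captured by chromatin immunoprecipitation and sequencing (ChIP-seq). The groups were vWAT with estradiol (4 libraries, 20715 peaks), vWAT with vehicle (2 libraries, 7400 peaks), and scWAT (3 libraries, 17971 peaks), BAT (1 library, 5193 peaks) and Liver (2 libraries, 21411 peaks), all 3 with estradiol. The labels WAT and BAT were read as white and brown adipose tissue. Each group has 1 list, so no value below carries an error from replicates, and differences between lists could not be tested. The sources used here do not give the dose, route or time of the treatment, the sex of the mice, or whether libraries came from separate animals.

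Hox genes encode homeodomain transcription factors that give cells their position along the body axis. They stand in clusters, and the order of the genes in a cluster follows the order of the body regions in which they are used, from anterior (groups 1 to 3) through central (4 to 8) to posterior (9 to 13). Adult tissues keep part of this pattern, and fat depots are known to differ in the Hox genes that they express. ERα is a nuclear receptor that binds estradiol and attaches to DNA at paired copies of a short motif or through other factors.

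The strongest Hox peak of vWAT with estradiol covered the first of 2 listed starts of Hoxd11, and a weak one covered the start of Hoxa5. Both were in the vWAT estradiol list alone, and these were the 2 stretches that a listed peak reached among 24 promoter stretches of 22 members in the RefSeq table (build GRCm38.p6, the assembly of mm10). The sequences are shown because they are the stretches of Hox promoter that lay in a peak. Each runs 5′ to 3′ on the gene's strand from 250 bases before the start to 50 bases after it, with the bases inside the peak in capitals. They are chr2:74679308-74679607 on the plus strand for Hoxd11 and chr6:52204538-52204837 on the minus strand for Hoxa5.
Hoxd11: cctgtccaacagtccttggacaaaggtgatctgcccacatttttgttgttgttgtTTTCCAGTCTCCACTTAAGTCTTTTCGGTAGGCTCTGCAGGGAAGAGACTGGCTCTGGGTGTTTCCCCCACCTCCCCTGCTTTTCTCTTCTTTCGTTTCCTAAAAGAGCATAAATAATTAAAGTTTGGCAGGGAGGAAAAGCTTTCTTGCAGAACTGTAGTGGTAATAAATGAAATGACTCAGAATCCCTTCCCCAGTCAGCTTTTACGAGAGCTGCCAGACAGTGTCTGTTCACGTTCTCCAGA
Hoxa5: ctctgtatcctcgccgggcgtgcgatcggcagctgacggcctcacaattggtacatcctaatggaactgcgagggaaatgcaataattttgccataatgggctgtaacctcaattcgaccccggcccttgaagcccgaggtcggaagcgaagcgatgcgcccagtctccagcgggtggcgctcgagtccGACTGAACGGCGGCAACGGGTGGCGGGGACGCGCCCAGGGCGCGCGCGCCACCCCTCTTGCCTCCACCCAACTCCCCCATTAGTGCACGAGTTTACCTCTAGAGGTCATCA
Of the 300 bases, 245 lay in the peak at Hoxd11 and 111 at Hoxa5, and the summits lay 165 and 179 bases after the listed starts. The motif AGGTCA, the unit to which a single receptor molecule can bind, was searched on both strands. It was found once in the Hoxa5 stretch, within the capitals, and was not found in the Hoxd11 stretch. The 2 stretches also differed in base composition, with 29 CG pairs and 61.7% G and C at Hoxa5 and 4 CG pairs and 45.7% at Hoxd11. The stretch at the second Hoxd11 start, chr2:74682073-74682372, lay outside the peak and held 25 CG pairs and 62.0% G and C.

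Of the 24 Hox peaks, vWAT with estradiol held 12, vWAT with vehicle 5, scWAT 5, BAT 1 and Liver 1. When lists were cut to equal length (5193 peaks), the counts were 2, 2, 1, 1 and 0, so the lead of vWAT with estradiol over vehicle was gone. Per megabase of the 660.0 kb that the members and their flanks cover, the full lists held 18.2, 7.57, 7.57, 1.51 and 1.51 Hox peaks. The same quantity over the flanked spans of all 21631 protein-coding genes was 11, 4.39, 9.87, 2.73 and 11.1. The 4 clusters together were above the density of all genes in both vWAT lists and below it in scWAT, BAT and Liver, but single clusters differed. In vWAT with estradiol the Hoxa (26.9) and Hoxc clusters (30.2) were above it and the Hoxb (10.0) and Hoxd clusters (6.81) below. In the vehicle list Hoxa (20.2), Hoxc (6.03) and Hoxb (5.02) were above it, and Hoxd had no peak. In scWAT the Hoxa cluster (20.2) was above it, and in BAT the Hoxc cluster (6.03), with its 1 peak. The 24 peaks fell at 19 separate places, of which 15 were in 1 list, 3 in 2 lists and 1 in 3 lists. None was in 4 or 5. Fewer cells of a type and less receptor bound per cell cannot be told apart in whole tissue.

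**Figure D1:**
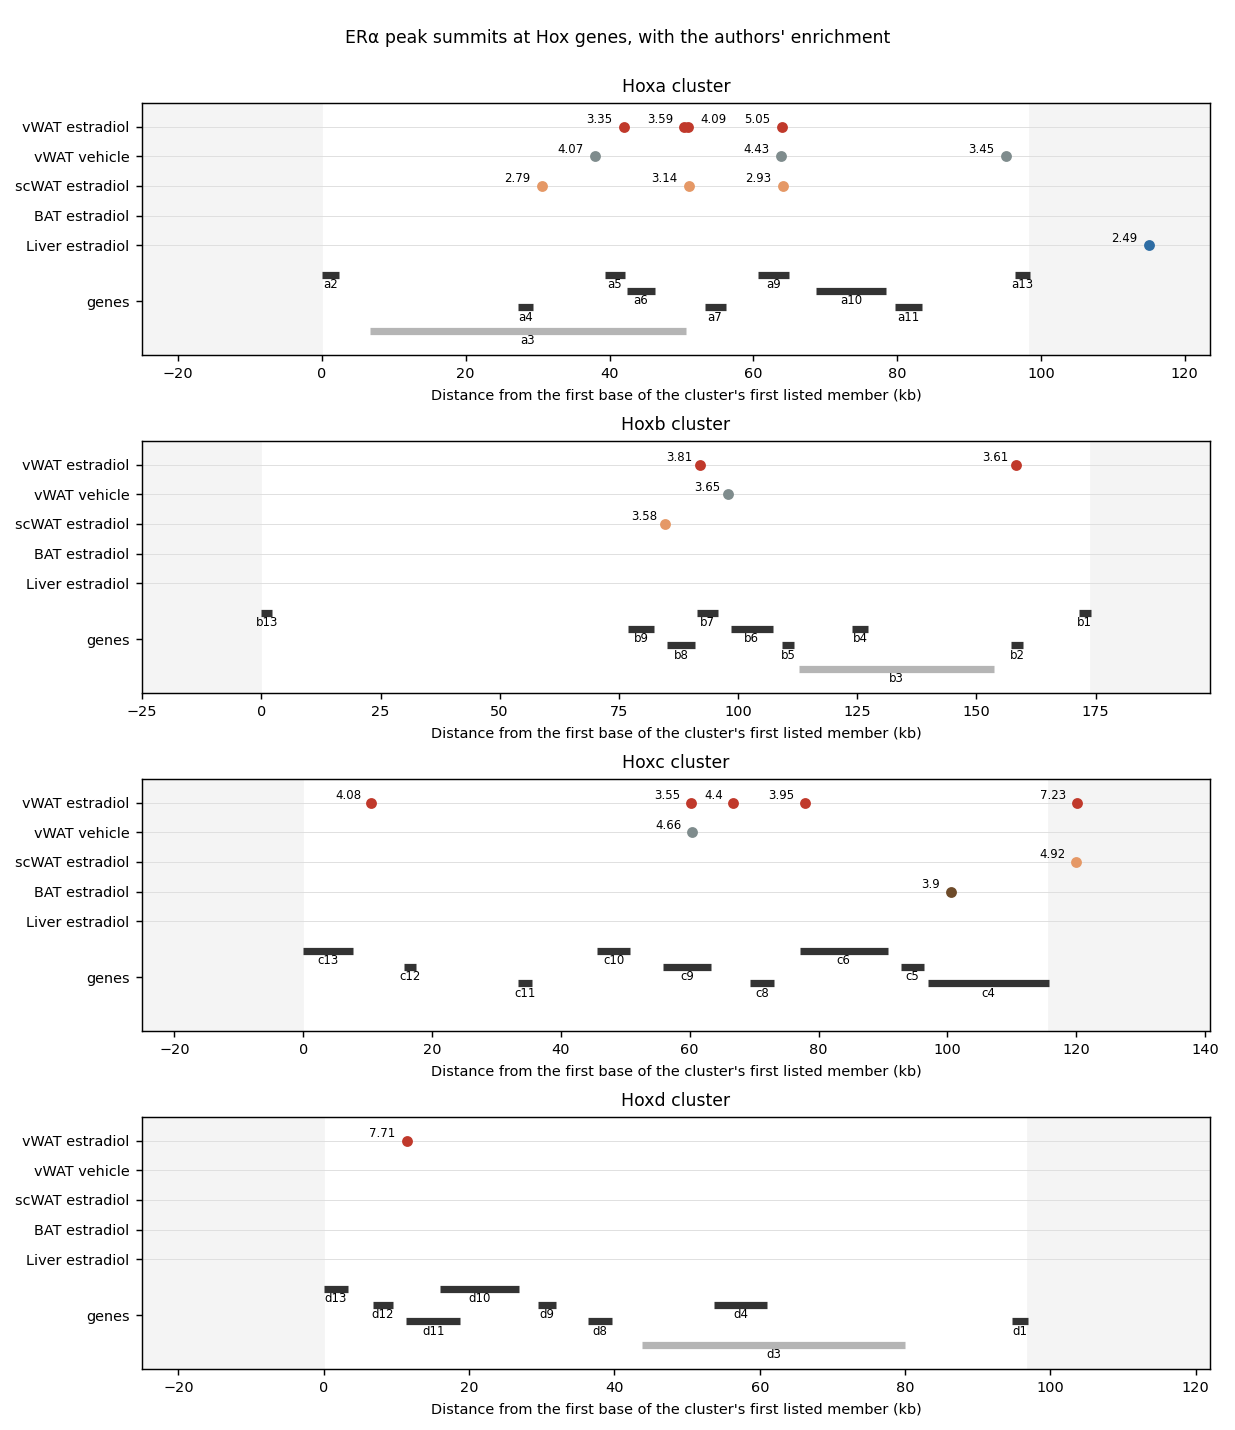
Summits of the 5 lists (rows of points) along the 4 clusters, with distance from the first base of the first listed member on the horizontal axis in kb and the authors' enrichment beside each point; bars are gene spans, grey bars are the 3 spans over 20 kb and shaded areas are the 25 kb flanks. The Hoxd cluster shows 1 point, and the Liver and BAT rows hold 1 point each.

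Counted by gene, 31 of the 38 members (81.6%) had a vWAT estradiol peak, where 61.5% of all protein-coding genes had one. The vehicle list had a peak at 20 members (52.6%), against 44.8% of all genes. In scWAT the count was 15 members (39.5%, against 61.0%), in BAT 3 (7.89%, against 29.7%) and in Liver 1 (2.63%, against 67.5%). Members are not separate observations, because neighbours share peaks: the 12 vWAT estradiol peaks served 31 members. The median Hox span was 3.72 kb, against 17.3 kb for all protein-coding genes. The vWAT counts did not stay above those of all genes under every setting. With lists of equal length, 8 members (21.1%) had an estradiol peak and 12 (31.6%) a vehicle peak, against 28.8% and 37.3% of all genes. With summits inside spans alone, the counts were 8 (21.1%) and 3 (7.89%), against 28.6% and 16.1%. With peaks of a −log10 q-value of 2 or more, the vehicle count was 12 (31.6%, against 37.5%) while the estradiol count was 29 (76.3%, against 59.2%). Within 5 kb the vehicle count was 9 (23.7%, against 31.5%). Over all 38 members, the counts for scWAT, BAT and Liver lay below those of all genes in each of the 6 settings of distance, threshold and list length. By cluster, at 25 kb, 8 of 10 Hoxa members (80.0%) had an scWAT peak and 3 of 9 Hoxc members (33.3%) a BAT peak, both above the share of all genes.

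**Figure D2:**
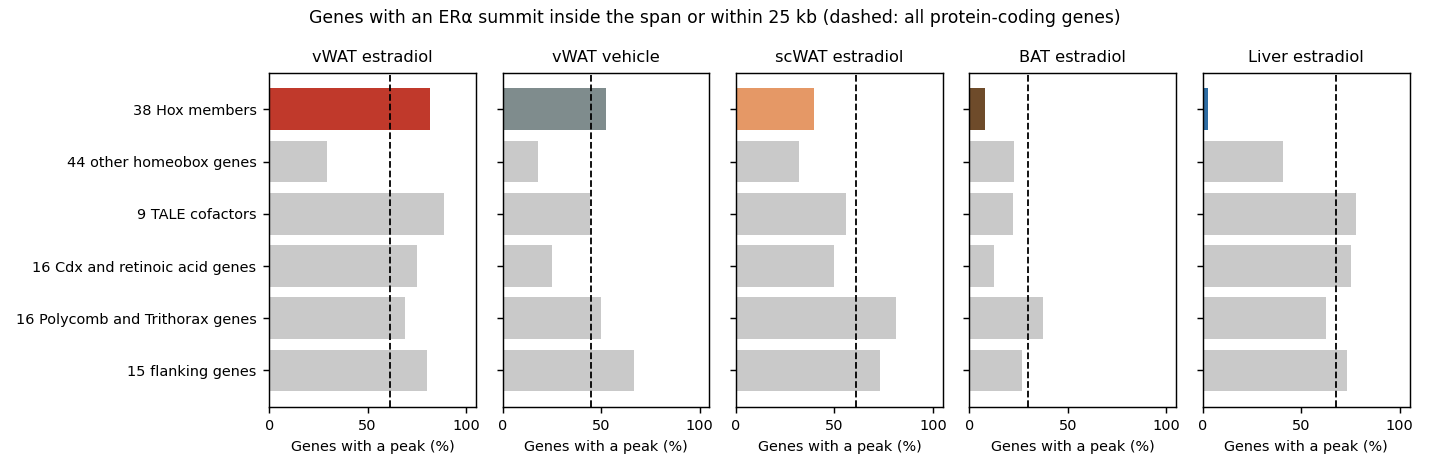
Percentage of genes with a summit inside the span or within 25 kb in each list, for the 38 Hox members (coloured bars) and 5 other gene lists (grey bars); the dashed line is the percentage of all protein-coding genes. The Hox bar passes the line in the vWAT lists and reaches 2.63% in Liver.

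The Hoxd cluster had 1 peak in all 5 lists together. It lay at chr2:74679363-74680017, inside Hoxd11, a posterior gene that patterns the forearm and the kidney together with its paralog Hoxa11. Its enrichment, the authors' ratio of signal over a background that is not stated, was 7.71, with a −log10 p-value of 16.4. It ranked 3839 among the 20715 peaks of its list, of which 81.4% were weaker. The lists of vWAT with vehicle, scWAT, BAT and Liver had no peak at any Hoxd member. The nearest summits were 101 kb away in the vehicle list, 109 kb in scWAT, 246 kb in BAT and 101 kb in Liver. The peak lay within 25 kb of Hoxd8, Hoxd9, Hoxd10, Hoxd11, Hoxd12 and Hoxd13. Hoxd1, Hoxd3 and Hoxd4, at the anterior end, had no peak in any list.

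The Hoxc cluster held 5 vWAT estradiol peaks, the most of any cluster, and all 9 of its members were within 25 kb of one. The strongest lay at chr15:103040882-103041512, beyond the anterior end of the cluster. Its summit was 4.36 kb past the end of Hoxc4, a gene of the neck region of the axis, inside the span of the non-coding gene Gm30528 and 112 kb from Smug1, the nearest protein-coding gene that is no member. Its enrichment was 7.23, above 78.7% of the vWAT estradiol list. A peak with its summit 60 bases away stood in the scWAT list with an enrichment of 4.92, above 78.4% of that list. No overlapping peak stood in the vehicle, BAT or Liver lists, whose nearest summits were 59.8 kb, 19.6 kb and 122 kb away. This place thus had a similar rank in both white fat lists with estradiol.

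Inside Hoxc9, a posterior gene widely used as a marker of white adipocytes, both vWAT lists had a peak. The estradiol peak, at chr15:102981182-102981744, had an enrichment of 3.55, above 8.01% of its list. The vehicle peak covered nearly the same bases and had an enrichment of 4.66, above 47.2% of its own list. The summits were 136 bases apart, and it was the only vehicle peak of the cluster. The other Hoxc peaks of vWAT with estradiol were in no other list. They lay 2.92 kb from Hoxc13, a gene of hair and nail formation (4.08), 2.63 kb from Hoxc8, which is known as a repressor of brown fat genes (4.40), and inside Hoxc6, a gene of the thoracic axis (3.95). BAT had its only Hox peak in this cluster, inside Hoxc4 at chr15:103021471-103022005 (3.90). Its −log10 q-value was 1.07, and the BAT list comes from 1 library. Hoxc5 lay within 25 kb of that peak and of the peak beyond Hoxc4. Hoxc10, which is known for its expression in subcutaneous fat, and the posterior genes Hoxc11 and Hoxc12 had no summit inside their spans in any list.

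The Hoxa cluster had peaks in both vWAT lists and in scWAT, with 4 peaks in vWAT with estradiol, 3 with vehicle and 3 in scWAT. In both vWAT lists its strongest peak lay in Hoxa9, a posterior gene that also acts in blood stem cells, whereas in scWAT it lay beside Hoxa3. The Hoxa9 place was the only Hox place found in 3 lists. The enrichment was 5.05 in vWAT with estradiol (chr6:52226081-52226660), 4.43 with vehicle and 2.93 in scWAT. These values stood above 53.7%, 41.5% and 24.7% of their lists, so the peak was of middle to low rank in each. The 3 summits lay within 264 bases of each other, at 955, 1079 and 815 bases after the start of Hoxa9. The nearest BAT and Liver summits were 179 kb and 51.1 kb from the vWAT estradiol summit.

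Between Hoxa6 and Hoxa7, central genes of the trunk, vWAT with estradiol had peaks at chr6:52212674-52212975 (3.59) and chr6:52213331-52213638 (4.09). The first was inside the RefSeq span of Hoxa3 and the second 326 bases beyond it, and both were inside Hoxaas3, a long non-coding RNA gene. The Hoxa3 span of 44 kb runs over Hoxa4, Hoxa5 and Hoxa6, so a place inside it does not single out Hoxa3 from its neighbours. The second peak was matched in scWAT (3.14), with summits 114 bases apart. The peak at the start of Hoxa5, a gene of the lung, the upper spine and fat, had an enrichment of 3.35 and ranked lowest of the 12, above 4.33% of its list. The vehicle list had a peak on the other side of Hoxa5, 1.35 kb from its end (4.07), and its summit was 4.0 kb from the estradiol summit. Further peaks stood alone, 1.27 kb from Hoxa13, a gene of digits and the urogenital tract, with vehicle (3.45) and 1.26 kb from Hoxa4 in scWAT (2.79). The only Hox peak of Liver lay 16.6 kb beyond Hoxa13 at chr6:52277427-52277724, with an enrichment of 2.49 and a −log10 q-value of 0.39, above 2.71% of its list. Hoxa10 and Hoxa11, posterior genes of the uterus and limb, had vWAT and scWAT peaks within 25 kb but none inside their spans. Hoxa2, a gene of the hindbrain and face, had no peak in any list.

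The Hoxb cluster held 4 peaks, and no 2 lists shared one. In vWAT with estradiol they lay inside Hoxb7, a central trunk gene (chr11:96285978-96286435, 3.81), and inside Hoxb2, a hindbrain gene (chr11:96352411-96352706, 3.61). The vehicle peak lay 0.53 kb from Hoxb6 inside the antisense gene Hoxb5os (3.65), and the scWAT peak 0.388 kb from Hoxb8, a central gene that also acts in blood cells (3.58). The vehicle and scWAT summits were 6.02 kb and 7.25 kb from the Hoxb7 summit. All 3 therefore fell within the stretch from Hoxb9 to Hoxb6 without touching. Hoxb5 and Hoxb9 lay within 25 kb of all 3, and Hoxb1 and Hoxb3 within 25 kb of the peak in Hoxb2. Hoxb3 also lay that close to the peak in Hoxb7 and to the vehicle peak. Hoxb4 and Hoxb13 had no peak in any list.

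Over all 38 members, Hoxa2, Hoxb4, Hoxb13, Hoxd1, Hoxd3 and Hoxd4 had no peak in any list. Hoxa13 had none in vWAT with estradiol but had one with vehicle and in Liver. Assigned to the nearest member with a span of at most 20 kb, 7 of the 12 vWAT estradiol summits belonged to central members, 4 to posterior and 1 to anterior ones. The members themselves were 15 central, 16 posterior and 7 anterior. The limit kept the anterior members Hoxa3, Hoxb3 and Hoxd3 from receiving any summit, so the split depends on it. The vWAT estradiol peaks 226 and 326 bases from the start of Hoxa3 were assigned to the central member Hoxa7 for this reason. In the vehicle list the summits were 2 central and 3 posterior, and in scWAT 4 central and 1 posterior.

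Within their lists the Hox peaks were mostly weak. In vWAT with estradiol their enrichment ran from 3.35 to 7.71 with a median of 4.01, against a median of 4.84 over the list, and 3 of the 12 (at Hoxd11, Hoxc4 and Hoxa9) were above it. With vehicle all 5 were below the list's median of 4.77 (range 3.45 to 4.66). In scWAT 2 of 5, near Hoxc4 and Hoxb8, were above the list's median of 3.43 (range 2.79 to 4.92). The stricter level, a −log10 q-value of 2 or more, was reached by 10 of the 12 estradiol peaks (89.9% over the list), by 2 of the 5 vehicle peaks (70.9%), at Hoxa9 and Hoxc9, and by 4 of the 5 scWAT peaks (88.0%). Neither the BAT peak (33.5%) nor the Liver peak (46.4%) reached it. The peaks were also narrower than usual in vWAT with estradiol, at a median of 324.5 bp against 434.0 bp over the list.

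**Figure D3:**
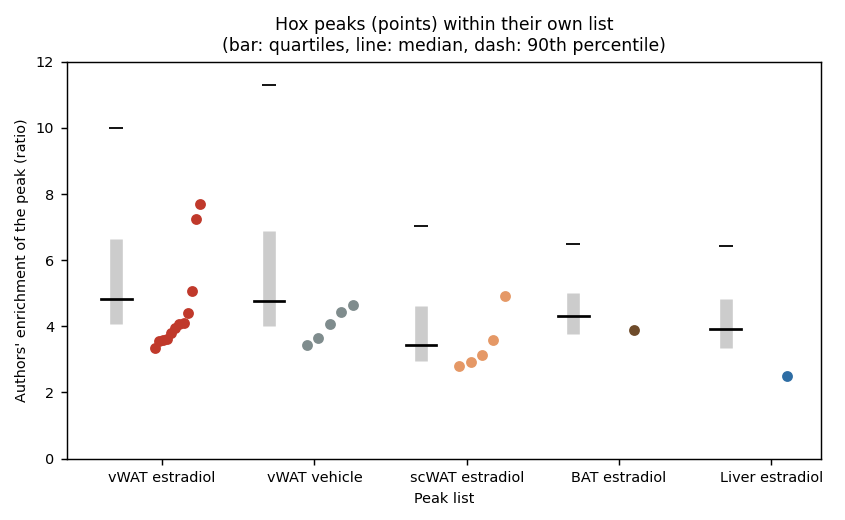
The authors' enrichment of each Hox peak (points) beside the quartiles (bar), median (line) and 90th percentile (dash) of all peaks of the same list; levels are comparable within a list only. All but 5 of the 24 points lie below the median of their list, and none reaches the 90th percentile.

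Of the 12 vWAT estradiol Hox peaks, 4 were found in at least 1 other list. Of the 12, 2 were found in the vehicle list (16.7%, 95% Wilson interval 4.7% to 44.8%), those at Hoxa9 and Hoxc9, where 22.7% of all vWAT estradiol peaks were found there. In scWAT 3 were found (25%, 8.89% to 53.2%), those at Hoxa9, beside Hoxa3 and beyond Hoxc4, against 48.4% of all. In BAT and in Liver 0 of 12 were found, which allows a share of up to 25%, against 11.1% and 22.8% of all. The intervals reflect only the small number of peaks, not variation among animals, and each of the 4 percentages over all peaks lies within them. Found in no other list were 8 of the 12 (66.7%), against 43.2% of all vWAT estradiol peaks, and no interval was computed for this share. Over the whole vWAT estradiol list, the median enrichment was 5.75 for peaks found in another list and 4.36 for those found in none. Whether the low enrichment of the Hox peaks accounts for their share was not tested. In the other direction, 2 of 5 vehicle peaks (63.8% over the list), 3 of 5 scWAT peaks (56.0%), 0 of 1 BAT peak (44.6%) and 0 of 1 Liver peak (22.2%) were found in vWAT with estradiol. Whether the lists differ at Hox genes beyond what the number and the unknown depth of their libraries would give was not tested.

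**Figure D4:**
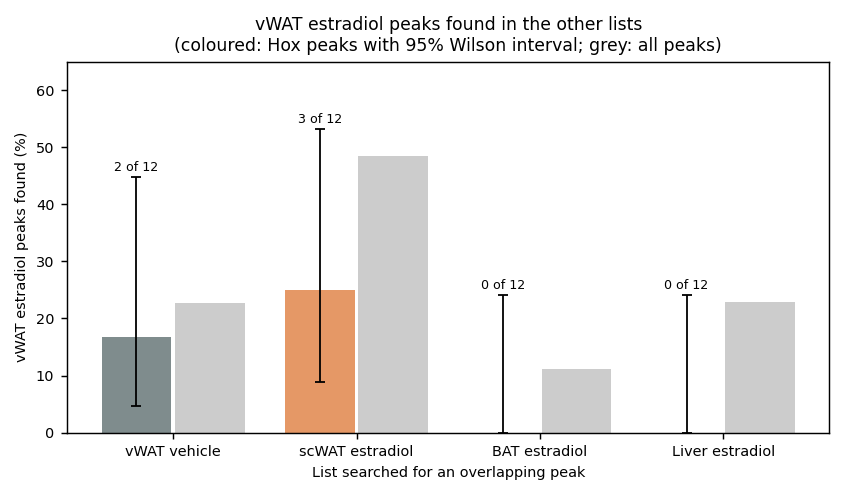
Percentage of vWAT estradiol peaks that overlap a peak of each other list by at least 1 bp, for the 12 Hox peaks (coloured, with 95% Wilson intervals) and for all 20715 peaks (grey). The Hox bars are 2, 3, 0 and 0 of 12, and their intervals include the grey values.

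Of the 12 Hox summits of vWAT with estradiol, 8 lay within 1 kb of a boundary of a protein-coding gene, against 24.0% of the list. A boundary here is either the start or the end of the gene, and the summits at Hoxd11, Hoxa5, Hoxa3 and Hoxa9 lay near starts. Those at Hoxb7, Hoxb2 and Hoxc6 lay 664, 898 and 766 bases inside the boundary of lower coordinate. These genes had no promoter stretch. The stretches listed for their clusters, at Hoxb8, Hoxb4, Hoxb1 and Hoxc4, were on the plus strand. On that strand the lower boundary of a gene is its start. The counts of summits within 1 kb of a boundary were 1 of 5 with vehicle (52.0%), 3 of 5 in scWAT (29.7%), 0 of 1 in BAT (34.4%) and 0 of 1 in Liver (25.2%). Of all bases of the clusters and their flanks, 23.2% were that close to such a boundary. The 25 kb limit decided few of the peak counts, whereas the counts of members with a peak changed with distance. In vWAT with estradiol, 18 members had a peak within 5 kb, 31 within 25 kb and 36 within 50 kb. The farthest summit inside the 25 kb limit was the Liver peak at 16.6 kb. The nearest outside were at 32.3 kb from the Hoxc cluster in vWAT with estradiol (7.35), at 32.2 kb in scWAT (3.78) and at 34.9 kb from the Hoxa cluster in Liver (4.52).

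Of other developmental homeobox genes, such as the Dlx, Irx and Msx families, a smaller share than of the Hox members had a peak in vWAT with estradiol and a larger share in Liver, though fewer than of all protein-coding genes in each list. Neighbouring Hox genes share peaks, so the shares do not compare numbers of peaks. Of 44 such genes 13 (29.5%, against 61.5% of all genes) had a vWAT estradiol peak and 8 (18.2%, against 44.8%) a vehicle peak. The counts were 14 in scWAT (31.8%, against 61.0%), 10 in BAT (22.7%, against 29.7%) and 18 in Liver (40.9%, against 67.5%). The strongest vWAT estradiol peaks of that list were near Prrx1 (14.3) and Prrx2 (13), homeobox genes of mesenchyme, Six4 (11.4) and Pitx3 (10.9). Each was stronger than the Hoxd11 peak (7.71) in the same list.

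Among genes that act with or on Hox genes there were peaks stronger than any Hox peak of the same list. Of 9 genes of the TALE family, the DNA-binding partners of Hox proteins, 8 had a vWAT estradiol peak (88.9%), 4 a vehicle peak (44.4%), 5 an scWAT peak (55.6%), 2 a BAT peak (22.2%) and 7 a Liver peak (77.8%). The shares of all genes, for this and the next 3 lists, are those just given. The strongest vWAT estradiol peaks were near Pknox2 (18.4) and Pbx2 (15.6), and both were also in the vehicle list. The strongest near Meis1 was 6.39 and was in the vWAT estradiol list alone. The median span of these genes was 139 kb, and a long span can hold more peaks. Of 16 Cdx and retinoic acid pathway genes, which set Hox expression in the embryo, the counts were 12, 4, 8, 2 and 12 in the same order of lists (75%, 25%, 50%, 12.5% and 75%), led by the retinoid receptor genes Rxrb (11.1), Rxra (9.10) and Rara (8.75) and by Aldh1a3 (7.70), which makes retinoic acid. Of 16 Polycomb and Trithorax genes, whose products keep Hox clusters silent or active, the counts were 11, 8, 13, 6 and 10 (68.8%, 50%, 81.2%, 37.5% and 62.5%). Their strongest peaks, near Kdm6b (14.1), Kmt2b (11.7), Men1 (11.3) and Eed (10.9), were present in all 5 lists. Of 15 genes that flank the clusters the counts were 12, 10, 11, 4 and 11 (80.0%, 66.7%, 73.3%, 26.7% and 73.3%). The 12 include a gene whose only vWAT estradiol peak was the Hoxd11 peak itself. The median span of the flanking genes was 48.4 kb, against 3.72 kb for the Hox members. The flanking peaks near Calcoco1 (19) and Smug1 (10.0), on either side of the Hoxc cluster, were present in all 5 lists, whereas those near Atf2 (10.6) and Calcoco2 (9.55) were absent from BAT alone.

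The tissue labels could be set only against peaks, which are not expression. Alb, the albumin gene of hepatocytes, had 4 Liver peaks and none in the other lists. Of other genes of hepatocytes, Fgb had 3 Liver peaks and 1 in scWAT, and Apoa2 had 3 in Liver, 3 in vWAT with estradiol, 2 with vehicle and 3 in scWAT. Lep, the leptin gene of white fat, had 4 peaks in vWAT with estradiol, 1 in scWAT and none in BAT or Liver. Ucp1, the brown fat gene, had no BAT peak, 2 in vWAT with estradiol and 1 in scWAT. Plin1, a lipid droplet gene, had 2 peaks in vWAT with estradiol and none elsewhere. Adipoq, the adiponectin gene of adipocytes, had a peak in all 5 lists, Liver included.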

How the data were processed

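ERα ChIP-seq was measured in 5 groups taken from the sample titles. The H3K27ac and RNA-seq samples were not used here. Per the labels' protocols, nuclei from frozen tissue were sonicated and precipitated with the antibody sc543. Per the submitters' processing notes the build was mm10, with BWA 0.7.12 and HOMER named without a role. The caller, threshold, control and pooling behind the peaks are not given in these sources, and the read depth is unknown. The authors deposited, peak by peak, an enrichment ratio, a −log10 q-value, a −log10 p-value and a summit. The deposited score column is 10 times the −log10 p-value cut to a whole number in 100.0% of peaks. Of 20723, 7409, 17987, 5197 and 21417 deposited peaks, those on chromosomes 1 to 19 and X were used.

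Members and lists were chosen with earlier results of these data known. Gene spans came from RefSeq (GRCm38.p6), without exons, so exons, introns and UTRs were not analysed here. All 38 members were found there, and 22 had promoter sequences. Of the flanking genes, Prac2 was not matched. Coordinates count from 1. Overlap was at least 1 bp. Peaks described singly were, per cluster, the strongest of each list, those in at least 3 lists and all vehicle peaks. The remaining peaks were described after their values were seen. Other lists name up to 4 genes by vWAT estradiol enrichment. A gene that this rule gives is not reported here. The tissue genes and the 20 kb span limit were chosen after the values were seen. Counts were set beside all protein-coding genes or all peaks, with no test. Tools were Python 3.11.15, pandas 2.3.3, numpy 2.4.6, matplotlib 3.10.9 and scipy 1.17.1, and overlap and gene assignment were tested on simulated data. Alternatives changed the distance, threshold, list length and overlap.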

Additional observations from a re-analysis of the deposited data

How the results depend on the processing

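Of 92 recomputed counts, 57 stayed within 1.5 times the reported value. Lists are given in the order vWAT estradiol, vWAT vehicle, scWAT, BAT, Liver. At an equal length of 5193 peaks, 2, 2, 1, 1 and 0 Hox peaks and 8, 12, 2, 3 and 0 members with a peak were left, and of the 2 vWAT estradiol peaks (at Hoxd11 and beyond Hoxc4) 0 were found with vehicle and 1 in scWAT. With −log10 q-values of 2 or more, the peaks were 10, 2, 4, 0 and 0 and the members 29, 12, 15, 0 and 0. Inside spans alone, the peaks were 8, 3, 2, 1 and 0, the members 8, 3, 2, 1 and 0, and 1 vWAT estradiol peak was found in scWAT. Within 5 kb the members were 18, 9, 9, 2 and 0, and within 10 kb 23, 14, 11, 3 and 0, with 0 Liver peaks at both distances. Within 50 kb the members were 36, 25, 21, 6 and 5, and Liver had 2 peaks. Reciprocal overlap of 50% or summits within 200 bp changed none of the counts of shared peaks (2, 3, 0 and 0). The number of Hox peaks seen thus changed with list length and, in some lists, with strictness and distance. The Liver count rests on 1 peak of −log10 q-value 0.39. Read depth is unknown, so a place without a peak may have been below detection. No paired analysis was possible because each group has 1 peak list, and leaving out a library could not be run for the same reason.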

Other observations

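The clusters hold microRNA genes as well as Hox genes, and 5 hairpins of the RefSeq table lay in them. Mir196b, next to Hoxa9, was 3.67 kb from the nearest vWAT estradiol summit, 3.79 kb from the nearest vehicle summit and 3.53 kb from the nearest scWAT summit, all of the Hoxa9 peak. Mir196a-2 was 7.88 kb from the peak in Hoxc9 with estradiol and 8.02 kb from it with vehicle. Mir196a-1 was 21.0 kb, Mir10a 30.9 kb and Mir10b 46.3 kb from the nearest vWAT estradiol summit of their clusters. Nearer summits of other lists lay 13.7 kb from Mir196a-1 in scWAT and 24.9 kb from Mir10a with vehicle.

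Of the 24 promoter stretches of 22 Hox members, 7 (29.2%) held the motif AGGTCA on either strand, against 16.2% of 32619 promoters of the same length. The perfect palindrome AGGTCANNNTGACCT was in 0 of the 24, and in 0.0215% of all promoters. With up to 2 mismatches it was in 0 of the 24 and in 1.51% of all. A perfect palindrome holds this motif on each strand. The median number of CG pairs was 14.5 in the Hox stretches and 7.0 in all promoters, and the median share of G and C was 57.7% and 53.0%. No match says only that these letters are not in these windows, and 22 of 38 members were covered.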
